A study of Mus musculus with 45 samples.

Results

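Intragenic CIC peaks away from promoters are the peaks of Capicua (CIC), a transcriptional repressor, that lie inside a protein-coding gene but not at the start of any transcript. They were taken from 3 deposited peak lists of the mouse cerebellum by position alone. A peak on chromosomes 1 to 19 was a member when none of its summits lay within 1 kb of a GENCODE transcript start of any kind and its first-listed summit fell inside the body of a protein-coding gene. In all, 1569 of 7015 peaks were members, that is 1095 of 4495 in the WT list, 344 of 1660 in the 154Q list and 130 of 860 in the 154Q[V591A;S602D] list.

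CUT&RUN, in which an antibody guides a nuclease that releases the DNA beneath its target, was carried out on nuclei isolated from the cerebellum of C57BL/6 mice aged 10 weeks. Each of 15 animals was divided over antibodies against CIC, H3K27ac and IgG, giving 45 samples, of which the peak lists rest on the 15 CIC samples. WT mice (n = 4), 154Q mice with 1 polyglutamine-expanded and 1 normal Atxn1 allele (Atxn1 154Q/2Q, n = 4) and 154Q[V591A;S602D] mice whose expanded allele also carries the changes V591A and S602D (n = 3) were each called against CIC KO mice (Engrailed1-Cre;Cic fl/fl, n = 4). V591A and S602D disrupt the contact of ATXN1 with CIC, so the lists ask where CIC is bound with normal ATXN1, with expanded ATXN1 and with expanded ATXN1 that has lost this contact. In the control mice Cre is driven by Engrailed1, and the study used them as mice without Cic across the cerebellum. The sample labels attach the WT list to the CIC samples of the CIC KO mice and no list to those of the WT mice, and it is read here as WT called against CIC KO from its name and the methods. Replicates were merged before peaks were called, so each genotype has 1 list, no spread between animals can be given, and no p-value between genotypes can be computed. Intervals on shares are 95% Wilson intervals and those on differences are 95% Newcombe intervals, both over peaks, and they cover counting error only. All lists share the same CIC KO control, so peaks found in more than 1 list are described and are not independent of each other. Tissue markers cannot be checked from peak positions.

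CIC binds short DNA sites through its HMG box together with a C-terminal domain, recruits co-repressors and holds down genes that RAS-ERK signalling releases, among them the PEA3 factors Etv1, Etv4 and Etv5 and the ERK inhibitors of the Spred and Sprouty families. ATXN1 binds CIC in neurons through its AXH domain. Peaks in introns away from transcript starts are the usual place of enhancers and silencers, and the gene that holds such a site is not always the gene it acts on. The site CIC prefers was searched as 4 octamers on both strands, TCAATGAA, TCAATGGA, TGAATGAA and TGAATGGA, within 50 bp of the summit with the highest q-value.

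The windows of 101 bases around the summits of 10 members are printed here because they are among the strongest or most changed members, and show where the CIC site lies in them or that it is missing. Each is the plus strand of GRCm38 with octamers in capitals, and an octamer of the minus strand appears as its reverse complement. The last run of capitals in Elfn1 holds 2 octamers that overlap.

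Clstn2 intron 2, 154Q summit, chr9:97685743-97685843: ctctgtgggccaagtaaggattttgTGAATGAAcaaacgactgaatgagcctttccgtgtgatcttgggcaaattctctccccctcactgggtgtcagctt
Spred1 intron 1, WT summit, chr2:117123127-117123227: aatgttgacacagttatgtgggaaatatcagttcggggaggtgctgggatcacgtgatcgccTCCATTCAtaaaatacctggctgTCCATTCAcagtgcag
Epc2 intron 1, 154Q summit, chr2:49452894-49452994: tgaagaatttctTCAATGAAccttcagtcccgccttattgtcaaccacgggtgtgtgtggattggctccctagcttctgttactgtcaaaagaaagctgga
Galk1 intron 5, 154Q summit, chr11:116009756-116009856: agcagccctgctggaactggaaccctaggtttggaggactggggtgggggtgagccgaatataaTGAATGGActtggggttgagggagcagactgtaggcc
Cntnap2 intron 11, 154Q summit, chr6:46399277-46399377: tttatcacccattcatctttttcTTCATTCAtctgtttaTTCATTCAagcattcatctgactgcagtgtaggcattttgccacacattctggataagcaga
Etv1 intron 5, 154Q summit, chr12:38788723-38788823: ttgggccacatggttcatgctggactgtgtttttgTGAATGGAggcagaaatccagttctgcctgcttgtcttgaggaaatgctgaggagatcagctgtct
Elfn1 intron 1, 154Q summit, chr5:139948666-139948766: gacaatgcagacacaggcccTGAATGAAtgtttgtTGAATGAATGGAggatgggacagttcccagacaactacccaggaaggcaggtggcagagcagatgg
Etv5 intron 5, 154Q summit, chr16:22429023-22429123: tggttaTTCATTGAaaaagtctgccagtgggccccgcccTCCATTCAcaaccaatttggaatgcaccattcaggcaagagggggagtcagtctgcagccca
Brinp2 intron 1, 154Q summit, chr1:158310482-158310582: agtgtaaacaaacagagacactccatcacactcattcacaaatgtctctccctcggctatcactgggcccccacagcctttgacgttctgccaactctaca
Etv5 intron 1, 154Q summit, chr16:22438512-22438612: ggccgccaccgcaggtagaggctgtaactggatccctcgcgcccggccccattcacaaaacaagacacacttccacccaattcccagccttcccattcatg

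In the first 8 of these windows the octamers number 1 in Clstn2, Epc2, Galk1 and Etv1, 2 in Spred1, Cntnap2 and the intron 5 site of Etv5, and 3 in Elfn1. Brinp2 and the intron 1 site of Etv5 hold no octamer, but hold the core TGAATG, which opens 2 of the 4 octamers, 1 time in Brinp2 and 2 times in Etv5, counting both strands. Elfn1 was chosen for display after its values were seen. Maml3, Rasgef1c, Plcl2, Tmem108, Nrg1, Dlg4 and D5Ertd579e below were likewise chosen after their values were seen.

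Members made up 24.4% of the WT peaks (95% interval 23.1 to 25.6%), 20.7% of the 154Q peaks (18.8 to 22.7%) and 15.1% of the 154Q[V591A;S602D] peaks (12.9 to 17.7%). The difference of 154Q from WT was -3.64 percentage points (-5.91 to -1.27), and the difference of 154Q[V591A;S602D] from 154Q was -5.61 points (-8.62 to -2.44). This order held for the full lists of 4495, 1660 and 860 peaks and turned against WT when lists of equal length were compared. With each list cut to its 860 highest-ranked peaks, members made up 13.5% in WT (11.4 to 15.9%), 18.1% in 154Q (15.7 to 20.9%) and 15.1% for 154Q[V591A;S602D], and 154Q then exceeded WT by 4.65 points (1.2 to 8.1). The excess of 154Q[V591A;S602D] over WT was 1.63 points (-1.69 to 4.94) and its difference from 154Q -3.02 points (-6.54 to 0.5), both with intervals that held 0. Of the 500 highest-ranked peaks, 65 (13%), 98 (19.6%) and 72 (14.4%) were members. With −log10 q above 3, the difference of 154Q from WT was -1.84 points, and that of 154Q[V591A;S602D] from 154Q was -3.14 points, and both intervals held 0 (-4.65 to 1.14 and -7.23 to 1.31).

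**Figure D1:**
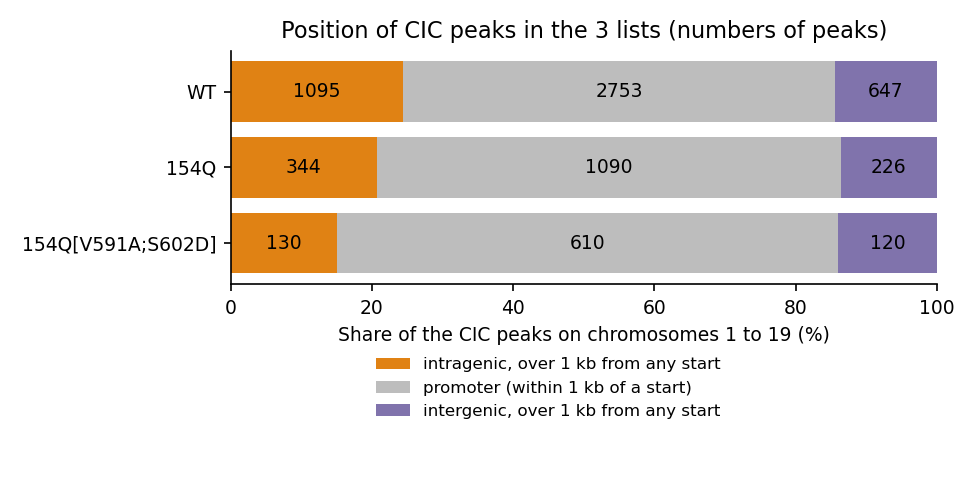
Share of the CIC peaks of each list (%, horizontal axis) that lay inside genes away from promoters (orange), within 1 kb of a transcript start (grey) or between genes (purple), with the number of peaks printed in each segment. The orange segment holds 1095 peaks (24.4%) in WT, 344 (20.7%) in 154Q and 130 (15.1%) for 154Q[V591A;S602D], over full lists of unequal length, and at 860 peaks each it would hold 13.5%, 18.1% and 15.1%.

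Most members were weak peaks, and a few stood among the strongest of their list. The median −log10 q was 3.18 in WT (lowest 1.31, highest 229.3), 3.31 in 154Q (1.33 to 320.0) and 3.07 for 154Q[V591A;S602D] (1.33 to 56.1). Promoter peaks of the same lists had medians of 4.3, 3.9 and 3. Among the top 50 ranks of each list, 6 peaks were members in WT, 9 in 154Q and 5 for 154Q[V591A;S602D].

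The strongest member in 2 of the 3 lists was in intron 2 of Clstn2, which encodes calsyntenin-2, a postsynaptic cadherin-like protein. In WT this peak spanned chr9:97685638-97686028, ranked 10 of 4495, had a −log10 q of 229.3 and held 390 fragments over a control background of 40.4. Its −log10 q was 320.0 in 154Q (rank 6) and 45 for 154Q[V591A;S602D] (rank 14), where 145 fragments stood over a background of 30.6. The nearest transcript start of any gene was 244356 bp from the WT summit. Its octamer, TGAATGAA at chr9:97685768-97685775, lay 27, 21 and 28 bp to the left of the WT, 154Q and 154Q[V591A;S602D] summits.

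Among the genes of the ERK feedback loop, Spred1, which encodes an inhibitor of RAF activation, held the second member in WT, at chr2:117122715-117123465 in intron 1. Its −log10 q was 172.7 and its fold enrichment 16, the highest of any WT member, with 212 fragments over a background of 12.3. In 154Q[V591A;S602D] it was the highest-ranked member (rank 12, −log10 q 56.1), with 99 fragments over 10.2. In 154Q the overlapping peak ranked 7 with a −log10 q of 306.9, but one of its summits came within 839 bp of a transcript start, so it counted there as a promoter peak. Spred1 was thus present in all 3 lists and a member in 2.

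Etv5, a PEA3 factor, held 2 members in each list. The intron 1 site, with the WT summit at position 22438565 of chromosome 16, had −log10 q values of 55.8 in WT, 253.2 in 154Q and 24.2 for 154Q[V591A;S602D], at ranks 46, 10 and 24. This site is a member by a narrow margin, since its summits lay 1005, 1008 and 1004 bp from the nearest start. The intron 5 site had values of 7.67, 27.4 and 5.93 and ranks of 1131, 84 and 186. Both sites stood highest in 154Q, and no interval can be put on that order.

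Etv1, the PEA3 factor that is also expressed in granule neurons, showed the same order at a single-octamer site in intron 5. The −log10 q was 13.3 in WT (rank 530), 41.5 in 154Q (rank 56) and 6.37 for 154Q[V591A;S602D] (rank 169). Spred2, a paralogue of Spred1, had a weaker intron 1 member with no octamer, at 10.2 in WT and 6.15 in 154Q with no overlapping peak in the 154Q[V591A;S602D] list. That list held a separate Spred2 peak of 14.5 that lay 929 bp from a start and so was no member.

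Outside this pathway, Brinp2, which encodes a neural protein linked to cell cycle arrest, and Epc2, a subunit of the NuA4 acetyltransferase complex, held members at ranks 27 and 30 in WT, 19 and 27 in 154Q, and 30 and 63 for 154Q[V591A;S602D]. For Brinp2, 14090 bp from the nearest start, the −log10 q was 75.4 in WT, 101.4 in 154Q and 20.9 for 154Q[V591A;S602D]. For Epc2, whose summits lay 1469, 1458 and 1475 bp from a start, the values were 71.3, 79.8 and 13.9. Both genes had their highest value in 154Q and their lowest for 154Q[V591A;S602D]. Clec11a, a secreted growth factor, ran in the other order between the first 2 lists, with 34.7 in WT, 21.3 in 154Q and 14 for 154Q[V591A;S602D]. Clnk, an immune adaptor, had 50.2, 6.63 and 4.91.

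Other members were found in all 3 lists at lower ranks. A peak within both Mvp, the major vault protein, and the overlapping gene model Pagr1b had values of 34.8, 10 and 7.7. Fgf14, a regulator of sodium channels that is linked to ataxia, had 32.1, 5.42 and 5.92 in intron 1. Gm44511, a gene model without a name, had 28.9, 9.11 and 4.34. Tob2, an antiproliferative protein, had 15.5, 11.8 and 13.2. At each of these the WT value was the highest.

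**Figure D2:**
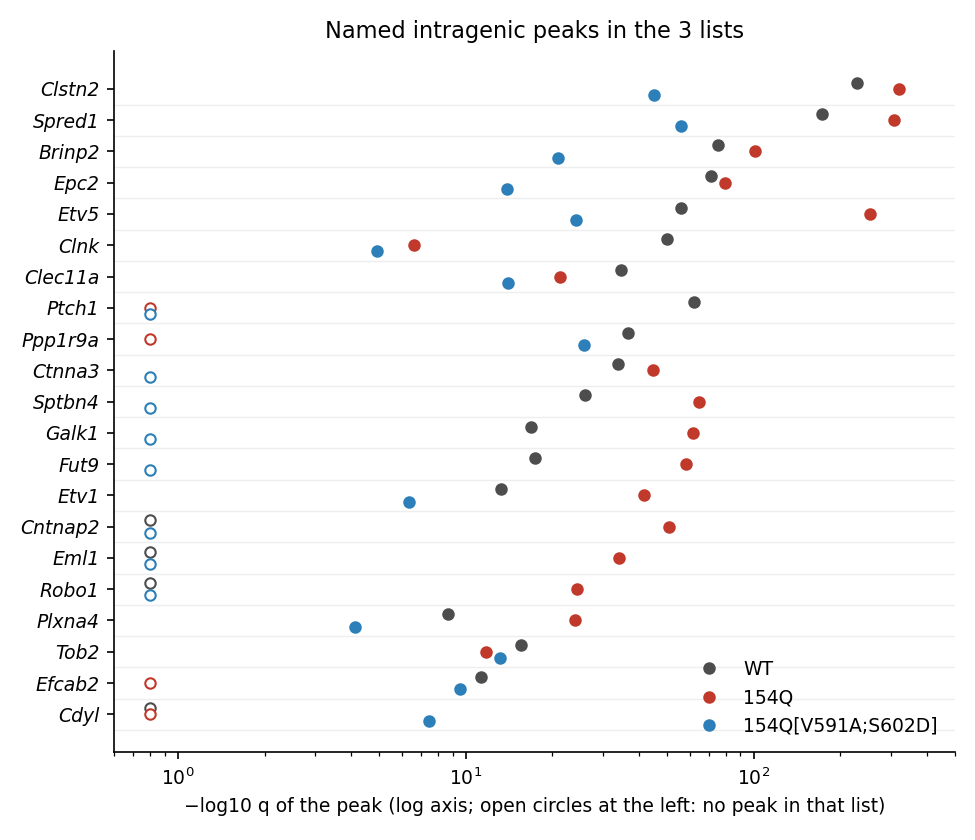
−log10 q (horizontal log axis) of the peak at 21 named intragenic sites in the WT (grey), 154Q (red) and 154Q[V591A;S602D] (blue) lists, 1 merged value per list and no error, with open circles where a list has no peak. Etv5 is the intron 1 site. Clstn2, Spred1, Brinp2, Epc2 and Etv5 lie highest in 154Q, Clnk and Clec11a highest in WT, and Cntnap2, Eml1 and Robo1 are filled in 154Q alone.

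Some strong members were met by no peak of another list. In WT these were Ptch1, the Hedgehog receptor (−log10 q 62.1, fold enrichment 11.9, 89 fragments over 6.59, rank 41), Ablim1, an actin-binding LIM protein (33.3), Flt1, a VEGF receptor (32.8), Cacna1d, an L-type calcium channel (29.9), and Elovl6, a fatty acid elongase (28.3). The Flt1 summit window was 100.0% soft-masked repeat and its background was 71.4 fragments, against a most frequent background of 6.6 in that list. The methods describe the removal of peaks over 50% repeat, and the name of the 154Q list alone records that step, but 9 of its 344 members had a summit window above that share of soft-masked bases, and the part of this step in the absence of a Flt1 peak there was not tested.

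In 154Q the strong members found in no other list included Cntnap2, which encodes the neurexin-like protein CASPR2 (51, rank 45, 2 octamers), Eml1, a microtubule-binding protein (34), Robo1, the receptor of the Slit guidance cues (24.3), and Thrb, a thyroid hormone receptor (16.3). In 154Q[V591A;S602D] they were weaker, namely Tmem267 (10.6), Cdyl, a chromodomain co-repressor (7.43), Aatk, a kinase of neurons (6.05), Pxn, the focal adhesion protein paxillin (5.39), and Ccdc85c (4.76). The peak in Tmem267 held 339 fragments over a background of 211.7, a fold enrichment of 1.6.

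In each of the 6 pairings of lists, the share of members met by a peak of the other list was below that of all peaks, a description that carries no test. Of the WT members, 154 of 1095 (14.1%, 12.1 to 16.2%) shared at least 1 bp with a 154Q peak and 70 (6.39%) with a 154Q[V591A;S602D] peak, where 22.4% and 13.1% of all WT peaks did so. Of the 154Q members, 155 of 344 (45.1%, 39.9 to 50.3%) met a WT peak and 45 (13.1%) one of 154Q[V591A;S602D], beside 61.6% and 24.4% of all 154Q peaks. Of the 154Q[V591A;S602D] members, 75 of 130 (57.7%, 49.1 to 65.8%) met a WT peak and 48 (36.9%) a 154Q peak, beside 69.8% and 47.6% of that list. For promoter peaks the share of 154Q peaks met by a 154Q[V591A;S602D] peak was 30.2%, and for intergenic peaks 13.7%. These shares depend on the lengths of the lists. With each cut to 860 peaks, 49.1% of WT members were met by 154Q and 35.3% of 154Q members by WT, the opposite order to that of the full lists, and the shares were 30.2% for WT members and 26.9% for 154Q members met by 154Q[V591A;S602D], and 29.2% for 154Q[V591A;S602D] members met by WT. Because the 154Q list gives points and not intervals, a meeting with it requires a summit, or the span of several summits, inside the other peak.

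The shared members were the stronger ones. WT members found in both other lists (46) had a median −log10 q of 12.9, those found in 1 other list (132) of 6.16 and those found in no other (917) of 2.68. For 154Q the 3 medians were 8.24 (42 members), 4.87 (116) and 2.32 (186), and for 154Q[V591A;S602D] 4.33 (46), 3.03 (31) and 2.47 (53). Of the 50 highest-ranked members, 35 of WT were found in 154Q and 44 of 154Q in WT. The same count was not made for promoter or intergenic peaks, so it is not read as a trait of members.

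For the members measured in both WT and 154Q, the values can be set side by side. Of the 154 WT members with a 154Q peak, 62 had the higher −log10 q in 154Q and 92 in WT, with medians of 6.63 in 154Q and 8.11 in WT. The 17 of them with an octamer at the WT summit had a median of 23.4 in 154Q and 7.67 in WT, and 13 were higher in 154Q. The 137 without one had medians of 6.15 and 8.13, and 49 were higher in 154Q. These q-values rise with the depth of the merged library, which the lists do not give, so only the contrast between the octamer and other members within the same pair of lists can be read, and it carries no test.

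Among these 17 the ratio of the 154Q to the WT value was highest at Elfn1, a synaptic adhesion protein of interneurons, with 3.93 in WT and 41.2 in 154Q, followed by Nrg1, neuregulin 1, with 1.37 and 11.6. Galk1, galactokinase, had 16.9 and 61.8. Plcl2, a phospholipase C-like protein, had 6.41 and 23.4. Maml3, a Notch coactivator, had 12.1 and 25.3. None of these 5 peaks was in the 154Q[V591A;S602D] list. That list met only 7 of the 36 octamer members of 154Q and 24.4% of all 154Q peaks, so their absence is not read as a loss. Rasgef1c, a RAS exchange factor with 5 octamers at its 154Q summit, was in all 3 lists with 9.18, 13.9 and 5.39. Tmem108, a transmembrane protein, had 11.3, 20.5 and 4.14, with an octamer at the 154Q and 154Q[V591A;S602D] summits but not at the WT summit. Not every octamer member moved this way, since Dlg4, the postsynaptic scaffold PSD-95, had 8.6, 5.65 and 2.22.

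For WT and 154Q[V591A;S602D], the fragments behind a peak could be recovered from its fold enrichment and p-value. At the 70 WT members with a peak in the other list, the summit pileup had a median of 39.5 fragments in WT (20 to 390.0) and 25 for 154Q[V591A;S602D] (18 to 145.0), and was higher in WT at 66. The control background, scaled by the peak caller to each treatment, had medians of 7.97 and 6.39 fragments and was also higher in WT at 66. Fold enrichment, which divides pileup by background after 1 is added to each, had medians of 4.04 and 3.35 and was higher in WT at 57 of the 70. These 70 sites were chosen as WT members. Over all members of each list the order was the other way, with medians of 3.02 in WT and 3.34 for 154Q[V591A;S602D]. The lists merge 4 WT and 3 154Q[V591A;S602D] libraries, and the values were not scaled here to the spike-in, so no difference in binding is read from them. At Etv5 intron 1 the pileups were 129 over 19.3 in WT and 80 over 16.4 in 154Q[V591A;S602D].

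**Figure D3:**
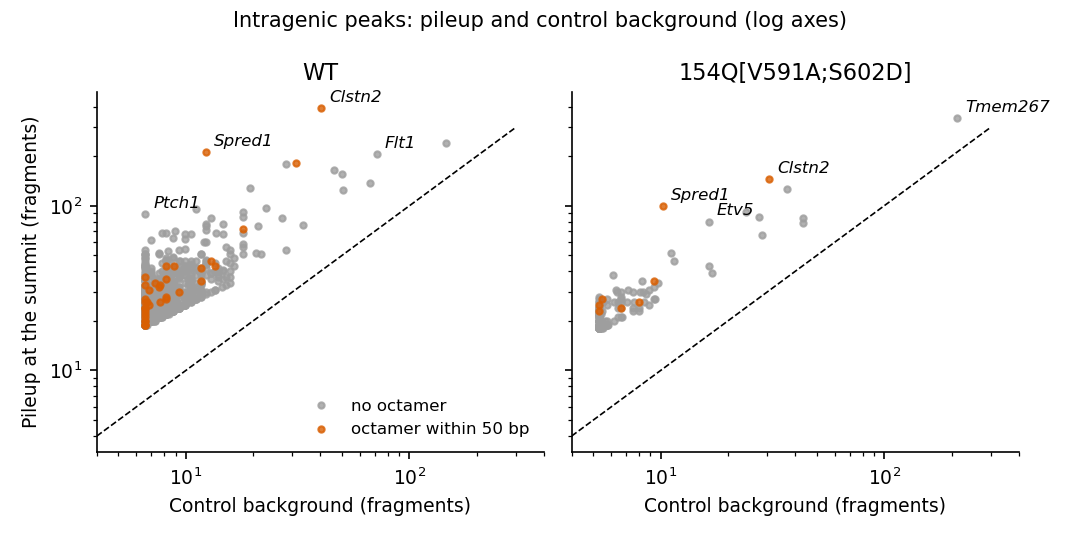
Pileup at the summit against the control background, both in fragments on log axes, for each member of the WT list (left, 1095 peaks) and the 154Q[V591A;S602D] list (right, 130 peaks), with octamer members in orange and the dashed line where pileup equals background. Clstn2 and Spred1 stand well above the line, while Tmem267, at 339 fragments over 211.7, lies close to it.

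High background marked a small group of members. It exceeded 3 times the most frequent value at 16 of the 1095 WT members and 11 of the 130 members of 154Q[V591A;S602D]. Strong sites named above were among these, namely Clstn2 (40.4 in WT and 30.6 for 154Q[V591A;S602D]), Epc2 (31 and 27.5) and Brinp2 (28.1 and 24). Etv5 intron 1 was among them for 154Q[V591A;S602D] alone (16.4). The highest in WT was 145.7 fragments at D5Ertd579e, where the fold enrichment was 1.64. In Ppp1r9a, which encodes the actin-binding protein neurabin, the summit window was 100.0% soft-masked and held telomere-type repeats, with −log10 q values of 36.5 in WT and 25.8 for 154Q[V591A;S602D]. Such repeats, counted as 4 or more copies in the window, were at 2 WT members, 1 member of 154Q[V591A;S602D] and none in 154Q. Windows over 50% soft-masked made up 5.84% of WT members, 2.62% of 154Q members and 6.15% of 154Q[V591A;S602D] members.

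The octamer was present at 35 of 1095 WT members (3.2%, 2.31 to 4.41%), 36 of 344 154Q members (10.5%, 7.66 to 14.1%) and 8 of 130 members of 154Q[V591A;S602D] (6.15%, 3.15 to 11.7%). Among all peaks of the 3 lists it was present at 2.36%, 6.69% and 3.6%. Windows of the same length 500 bp from the member summits held it in 2.01%, 2.91% and 4.62%. The 154Q share exceeded the WT share by 7.27 points (4.21 to 11.1). Between 154Q and 154Q[V591A;S602D] the difference was 4.31 points (-1.88 to 9.06), an interval that holds 0. When each list was cut to its 130 highest-ranked members, the shares were 6.15% in WT, 19.2% in 154Q and 6.15% for 154Q[V591A;S602D], and 154Q then exceeded 154Q[V591A;S602D] by 13.1 points (5.03 to 21.3).

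In WT and 154Q, members held the octamer more often than promoter peaks of the same list. The difference was 1.42 points in WT (0.363 to 2.71), 5.88 points in 154Q (2.73 to 9.72) and 3.2 points for 154Q[V591A;S602D] (-0.231 to 8.83), the last of which did not leave out 0. Windows 500 bp away held the octamer at 2.01%, 2.91% and 4.62% of members and at 0.835%, 1.38% and 1.31% of promoter peaks. Members thus also stood above promoter peaks off the summit. At the summit, intergenic peaks held the octamer at 3.4%, 11.1% and 4.17%, and the differences of members from them, at -0.204, -0.597 and 1.99 points, all had intervals that held 0. The intervals ran from -2.12 to 1.47 points in WT, from -6.12 to 4.45 in 154Q and from -4.03 to 8 for 154Q[V591A;S602D]. In the RefSeq promoter windows of 300 bases (GRCm38.p6), a length for which the share is naturally higher, 3.69% of 31396 held an octamer.

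**Figure D4:**
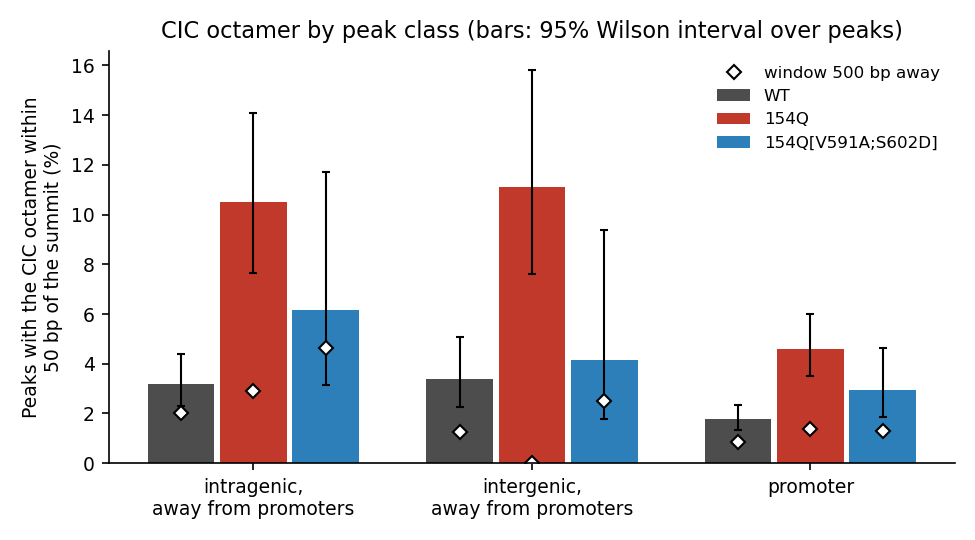
Share of peaks with a CIC octamer within 50 bp of the summit (%, vertical axis from 0) for intragenic members, intergenic peaks and promoter peaks of the WT (grey), 154Q (red) and 154Q[V591A;S602D] (blue) lists, with 95% Wilson intervals over peaks and white diamonds for windows 500 bp away. The 154Q share is 10.5% for members, 11.1% for intergenic and 4.59% for promoter peaks.

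Among the 50 highest-ranked members it was present at 4 in WT, 16 in 154Q (32%, 20.8 to 45.8%) and 6 for 154Q[V591A;S602D]. Among the other members the shares were 2.97%, 6.8% and 2.5%. The 50 highest-ranked exceeded the rest by 25.2 points in 154Q (13.4 to 39.2), and by 5.03 points in WT (0.0388 to 15.9) and 9.5 points for 154Q[V591A;S602D] (0.627 to 21.4), where the lower bounds lay close to 0. The 50 highest-ranked promoter peaks held it 8, 17 and 8 times. WT members found in another list held it in 18 of 178 cases and those found in no other in 17 of 917, a difference of 8.26 points (4.48 to 13.6). In 154Q and 154Q[V591A;S602D] the same differences were 6.4 points (-0.148 to 13.3) and 7.2 points (-2.08 to 15.8).

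By form, TGAATGAA was the most frequent in WT and 154Q, with 27 of 45 occurrences and 34 of 50. TGAATGGA followed with 13 in each, and the forms opening with TCAATG made up 5 and 3. In 154Q[V591A;S602D] TGAATGGA had 6 and TGAATGAA 5 of 13 occurrences. Several octamers at 1 summit were rare, at 5 WT, 7 154Q and 2 154Q[V591A;S602D] members. Octamer centres lay within 25 bp of the summit in 25 of 45, 28 of 50 and 7 of 13 occurrences.

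The shorter core TGAATG, counted after the sequences had been seen and also contained in 2 of the 4 octamers, was present at 8.68% of WT members (7.15 to 10.5%), 19.5% of 154Q members (15.6 to 24%) and 11.5% of 154Q[V591A;S602D] members (7.12 to 18.2%). In the windows 500 bp away it was in 6.12%, 3.78% and 9.23%. Of the 50 highest-ranked 154Q members 26 held it, against 11 in WT and 10 for 154Q[V591A;S602D]. The 50 highest-ranked promoter peaks held it 27, 10 and 11 times in the order 154Q, WT and 154Q[V591A;S602D], and the intergenic ones 25, 9 and 5 times, so 154Q stood above WT in each class. Sptbn4, which encodes the spectrin of axon initial segments, was one of the 26 members in 154Q, with a −log10 q of 64.6 there and 25.9 in WT.

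Other motifs were counted in the same windows. The GC box GGGCGG, a site of SP factors, was at 3.93% of members in WT, 3.78% in 154Q and 7.69% for 154Q[V591A;S602D], and at 35.5%, 37.4% and 40% of promoter peaks. The AP-1 site TGANTCA was at 4.11%, 6.4% and 1.54% of members and at 1.71%, 1.65% and 1.15% of promoter peaks. Intergenic peaks held it at 5.26%, 4.87% and 3.33%, and windows 500 bp from the member summits at 2.47%, 2.62% and 2.31%, so it was not particular to members. The E-box CAGCTG was at 5.66%, 6.98% and 6.92% of members, and at 5.21%, 4.07% and 7.69% of windows 500 bp away. The CRE TGACGTCA was at 2 WT members and at none of the others. None of these motifs, searched on both strands, is contained in an octamer. Median GC content was 51.5%, 51.5% and 53.5% at members against 60.4%, 61.4% and 62.4% at promoter peaks, and the observed over expected CpG ratio had a median of 0.186 at WT members and 0.746 at WT promoter peaks.

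Within genes, members lay almost entirely in introns. The intron share was 91.9% in WT (90.1 to 93.3%), 91.3% in 154Q (87.8 to 93.8%) and 94.6% for 154Q[V591A;S602D] (89.3 to 97.4%), where introns made up 92.8% of all protein-coding gene bases over 1 kb from a start. Coding exons held 2.83%, 3.78% and 2.31% of members and 2.61% of those bases. The first intron of the main transcript held more members than its length, with 32.5% in WT (29.8 to 35.3%), 31.4% in 154Q (26.7 to 36.5%) and 37.7% for 154Q[V591A;S602D] (29.8 to 46.3%), against 21.9% of the bases. The median distance from the closest summit to a start was 8887 bp in WT, 8590.5 bp in 154Q and 6471 bp for 154Q[V591A;S602D].

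At the 1 kb threshold, the members can be set beside the excluded gene-body peaks next to it. Peaks at 1000 to 1200 bp had a median −log10 q of 3.18 in WT (45 peaks), 3.54 in 154Q (14) and 3.28 for 154Q[V591A;S602D] (6). Those at 800 to 1000 bp, just outside, had 3.05 (61), 1.79 (24) and 3.37 (10). Etv5, at 1005 bp, and Usp2, at 998 bp with a −log10 q of 6.5, were the WT peaks nearest to it on either side.

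Members were hosted by long genes, an outcome the rule favours, since a long gene holds more bases over 1 kb from a start. Its direction is therefore no evidence on CIC. The 750 WT, 293 154Q and 122 154Q[V591A;S602D] host genes had median lengths of 100, 110.7 and 96 kb, and 50%, 53.9% and 48.4% of them exceeded 100 kb, against a median of 17.6 kb and 11.4% over all 20807 protein-coding genes. Most held 1 member, that is 520, 251 and 115 of them. In WT 26.4% of host genes also had a promoter peak assigned to them, beside 10.6% of all genes.

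The genes with most members in WT were Tspan9, a tetraspanin, with 8, Ntm, the adhesion protein neurotrimin, and Soga1 with 7 each, and Trpm3, a cation channel, with 6. All of these peaks were in introns, and none held an octamer. They were weak, with a highest −log10 q of 9.6 in Tspan9, 4.79 in Ntm and Soga1 and 4.55 in Trpm3. Ablim1, with 5, differed in holding peaks of 33.3 and 23.4. In 154Q Kif5c, a neuronal kinesin, held 4 (highest 14.3), and Atp2b2, the Purkinje cell calcium pump PMCA2, Ptprj, a receptor phosphatase, E330009J07Rik, Stk10, Tspan9 and Unc13d were among those with 3 each. In 154Q[V591A;S602D] Peg3, an imprinted zinc finger gene, held 3 (7.27, 5.62 and 3.92), each overlapping the single peak of WT (25.6) and of 154Q (17.2).

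Known CIC and ERK feedback targets held members more often than genes at large. Of 15 such genes, 4 held a member in WT (Etv1, Etv5, Spred1 and Spred2), 3 in 154Q and 3 for 154Q[V591A;S602D], where 3.69%, 1.44% and 0.606% of all protein-coding genes did. By length this was 11.7, 9.73 and 7.78 members per Mb of gene body beyond 1 kb of a start, against 1.18, 0.372 and 0.141 over all genes. This list was drawn up with the strong CIC sites of these data known, and gives no independent evidence of its direction. Of the wider RAS-ERK cascade, 7 of 39 genes held members in WT, 4 in 154Q and none for 154Q[V591A;S602D], that is 1.92, 0.513 and 0 members per Mb beside the same 1.18, 0.372 and 0.141 over all genes. Their values were low, as in Grb2, the adaptor of receptor kinases, at 9.63 in WT and 2.8 in 154Q, and Rasa3, a RAS GTPase-activating protein, at 6.08 and 1.43. A WT member at 9.47 in Fgfr2 also lay inside Tacc2.

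Of 50 synaptic adhesion genes, which bridge pre- and postsynaptic membranes, 17 held a member in WT, 7 in 154Q and 2 for 154Q[V591A;S602D]. This was 0.769, 0.334 and 0.0669 members per Mb beside 1.18, 0.372 and 0.141 over all genes, the last 2 list values resting on 10 and 2 members. Besides Clstn2 and Cntnap2, they included Cntnap5b, a neurexin-like protein (25.8 in WT alone), Nrxn3 (14.9 in WT and 6.02 in 154Q), Cntn6, a contactin (7.84 in WT alone) and Nrxn2 (6.57 in WT, met by peaks of 1.39 in 154Q and 1.54 for 154Q[V591A;S602D]). Axon guidance genes gave 6, 4 and 2 of 38, or 0.859, 0.477 and 0.191 members per Mb beside the same values over all genes. Plxna4, a semaphorin receptor, was in all 3 lists with 8.66, 23.9 and 4.11 in intron 3. Plxnb2, a plexin, had 8.5 in WT at an intron 1 site, met by peaks of 6.8 in 154Q and 3.37 for 154Q[V591A;S602D]. Robo1 and Sema6a, at 24.3 and 8.79, were in 154Q alone.

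Voltage-gated channels held members in 12 of 41 genes in WT, 3 in 154Q and 1 for 154Q[V591A;S602D]. These are long genes, with a median of 248.5 kb, and their 1.66, 0.438 and 0.0876 members per Mb stood beside 1.18, 0.372 and 0.141 over all genes. Cacna1e, the R-type calcium channel, was in all 3 lists with 10.6, 9.48 and 4.76 in intron 1. Cacna1d at 29.9, Cacna1a, the P/Q-type channel of Purkinje cells, at 12.9 and Scn2a at 6.8 had no overlapping peak in another list. Scn8a had 4.22 in WT and 4.15 in 154Q, with an octamer. Of 37 glutamate and GABA receptor genes, 6, 2 and 1 held members, at 0.954, 0.173 and 0.0867 per Mb, each below the value over all genes. They were led by Gabrd, the GABA-A delta subunit of granule neurons, with 12.7 in WT and 6.18 in 154Q, and Grin2a with 7.06 in WT.

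By cell type, granule neuron genes were the most densely covered of these lists after the CIC targets. In WT 10 of 24 held a member, 5 in 154Q and 4 for 154Q[V591A;S602D], at 5.25, 2.33 and 1.75 members per Mb against 1.18, 0.372 and 0.141 over all genes. They included Etv1, which also counts among the CIC targets, Tiam1, a RAC exchange factor, with 15.7, 7.01 and 1.44 at a site in all 3 lists, Nfib, a nuclear factor I gene, with 2.21 in WT and 11.6 in 154Q at a shared site, and Cbln3, a cerebellin, with 8.13, 2.9 and 4.28 in all 3 lists. Fat2, a protocadherin of parallel fibres, held members at several intron 1 sites, of which the strongest, at 6.8, was in 154Q alone. Another Fat2 site had an octamer, with 3.94 in WT and 3.03 for 154Q[V591A;S602D], and a separate site had 2.31 in 154Q and 3.51 for 154Q[V591A;S602D]. Of 26 Purkinje cell genes 6, 3 and 2 held members, at 1.82, 0.909 and 0.364 per Mb, the last resting on 2 members. Among them were Atp2b2 (19 in WT, met by 1.83 in 154Q) and Rgs8, a regulator of G-protein signalling (4.65 in WT and 11.6 in 154Q at a shared site, and 4.14 for 154Q[V591A;S602D] elsewhere in the gene). Astrocyte and Bergmann glia genes gave 4, 1 and 0 of 28, at 1.09, 0.182 and 0 per Mb. Nfib, counted here and among the granule neuron genes, held 2 of their 6 WT members and the 1 member in 154Q. Oligodendrocyte genes gave 0, 1 and 0 of 24, the 1 being St18 at 2.12, a density of 0.503 per Mb in 154Q. Granule neurons are the most numerous cells of the cerebellum, and a list of bulk peaks cannot tell more nuclei with a site from stronger binding in each.

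**Figure D5:**
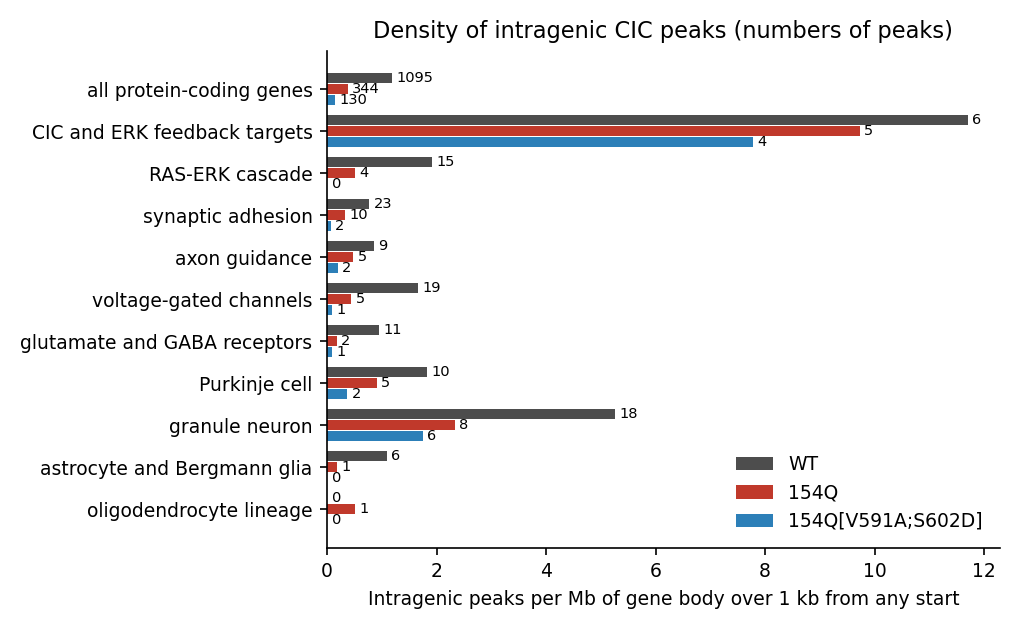
Members per Mb of gene body beyond 1 kb of any transcript start (horizontal axis from 0) for all protein-coding genes and 10 gene lists, in WT (grey), 154Q (red) and 154Q[V591A;S602D] (blue), with the number of members beside each bar. CIC and ERK feedback targets lead with 11.7, 9.73 and 7.78, followed by granule neuron genes with 5.25, 2.33 and 1.75.

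Of the genes altered in these mice, no member lay in Cic or En1. The 154Q[V591A;S602D] list held 1 member in Atxn1, in an untranslated exon at chr13:45568460-45568765, with a −log10 q of 1.98 and 19 fragments over 5.28. It was in neither other list, and the edited allele and CIC binding cannot be told apart there.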

How the data were processed

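CIC CUT&RUN peak lists of WT, 154Q and 154Q[V591A;S602D] cerebellum were analysed. According to the methods, the authors trimmed reads with Trimmomatic 0.36, aligned them to mm10 (GRCm38) with Bowtie2 2.3.4.1, kept fragments under 120 bp, removed blacklisted regions, merged replicates, called peaks with MACS3 at q 0.05 against the merged CIC KO and omitted peaks over 50% repeat, with no genotype named. For WT and for 154Q[V591A;S602D] the deposited files give a score, a fold enrichment, −log10 p and −log10 q values and a summit offset. The deposited 154Q list gives summits with a −log10 q alone, and its name alone records the repeat step; whether the step was applied to the other lists as deposited is not given in the sources used here. The depth of the merged libraries was not used here.

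Lines were collapsed by peak number, and peaks were ranked by −log10 q. Positions were set against the GENCODE comprehensive annotation of GRCm38. Summit pileup and background were recovered by solving the fold enrichment and p-value of each peak together (tolerance 0.02 on −log10 p). Peaks were shared when they overlapped by 1 bp, a 154Q peak being the span of its summits. Each list was a group. Shares were compared by 95% Wilson and Newcombe intervals, with no p-value since there is 1 list per genotype. Alternatives were a −log10 q above 3, a 5 kb promoter limit, equal list lengths, a 100 bp motif window, equal member numbers and other settings. Named genes were the hosts of the 10 highest-ranked members of each list and of the 10 found in all lists with the highest WT rank, up to 5 genes with 3 or more members per list, the 4 genes with the highest-ranked members of each gene list, and up to 5 highest-ranked members per list that met no other list. Other genes were named after their values were seen. The members, gene lists and rules were chosen with earlier results of these data known. Python 3.11.15, numpy 2.4.6, scipy 1.17.1, pandas 2.3.3, pysam 0.24.0 and matplotlib 3.10.9 were used, and the scripts were tested on simulated data. H3K27ac and IgG samples were not analysed here. Some items that the rule for named genes selects are not reported here.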

Additional observations from a re-analysis of the deposited data

Results flagged for a closer look

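The share of intragenic peaks with a CIC octamer within 50 bp of the summit differed between the 154Q and WT lists, at 10.5% of 344 and 3.2% of 1095 members. The difference was 7.27 percentage points (95% Newcombe interval 4.21 to 11.1, over peaks). The difference was not particular to members, since all peaks held the octamer at 6.69% in 154Q and 2.36% in WT, intergenic peaks at 11.1% and 3.4%, and promoter peaks at 4.59% and 1.78%. The member difference stood out because the same measure differed between the groups by an interval that leaves out 0. It was 7.55 points (4.4 to 11.4) with peaks over 50% soft-masked left out of every list, and 13.1 points (5.03 to 21.3) with 130 members from each list. Replicates were merged, so the spread between mice cannot be given.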

How the results depend on the processing

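No paired analysis was possible because replicates were merged before peak calling, and for the same reason no replicate could be left out. Over 27 results and 150 alternatives, 104 values kept their side of 0 or moved little, 33 values moved, 6 differences came to leave out 0, 3 came to hold 0 and 4 turned their direction. Those that turned were differences in member share. With lists cut to 860 peaks, chosen for these shares after seeing the data, WT had 13.5% members and 154Q 18.1%, 154Q exceeded WT by 4.65 points, 154Q[V591A;S602D] exceeded WT by 1.63 points (-1.69 to 4.94), and 154Q[V591A;S602D] differed from 154Q by -3.02 points (-6.54 to 0.5), which came to hold 0. Over the 500 highest-ranked peaks, also chosen then, WT had 13%, and the first 2 differences were 6.6 and 1.4 points. No difference in octamer share turned, but the excess of 154Q[V591A;S602D] over WT in octamer share vanished with equal member numbers, both being 6.15%. The cause of the moves was not tested beyond the smaller number of peaks where fewer were kept.

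With −log10 q above 3 the members numbered 570, 186 and 67 in WT, 154Q and 154Q[V591A;S602D], the WT share was 20.9%, the member share of 154Q differed from WT by -1.84 points (-4.65 to 1.14) and that of 154Q[V591A;S602D] from 154Q by -3.14 points (-7.23 to 1.31), both of which came to hold 0, and the shares found elsewhere were 17.9% (WT in 154Q), 54.8% (154Q in WT), 68.7% and 49.3% (154Q[V591A;S602D] in WT and in 154Q). The octamer shares were then 4.91% in WT and 15.6% in 154Q, and the 154Q[V591A;S602D] members exceeded promoter peaks by 6.09 points. With a promoter limit of 5 kb the members numbered 694, 220 and 78, or 15.4%, 13.3% and 9.07% of peaks. With lists cut to 860 peaks, 49.1% of WT members were found in 154Q, 30.2% of WT in 154Q[V591A;S602D], 35.3% of 154Q in WT, 26.9% of 154Q in 154Q[V591A;S602D] and 29.2% of 154Q[V591A;S602D] in WT.

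With an octamer window of 100 bp the shares were 5.3% in WT and 14.5% in 154Q, members of 154Q[V591A;S602D] exceeded promoter peaks by 5.57 points and WT members by 4.7 points. With 130 members from each list the octamer shares were 6.15% in WT and 19.2% in 154Q, and 154Q exceeded 154Q[V591A;S602D] by 13.1 points. Chosen after seeing the data, the core TGAATG gave 8.68% in WT and 19.5% in 154Q, with 154Q[V591A;S602D] members 6.46 points above promoter peaks and 154Q members 7.94 points above those of 154Q[V591A;S602D]. Also chosen after seeing the data, the basic transcript set gave member shares of 27.8%, 23.7% and 17.8%.

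The lists do not give the depth of the merged libraries, which limits how q-values can be compared across them.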
